A study of Mus musculus with 6 samples.

Results

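The cytosolic ribosome of the mouse is built from ribosomal RNA and a fixed set of ribosomal proteins, named Rps for the small subunit and Rpl for the large one. Genes for these proteins were taken by symbol, that is every row named Rps or Rpl with a number and, where present, a letter suffix, together with Rplp0, Rplp1, Rplp2 and Rpsa, while rows marked as pseudogenes by "-ps" were set aside. This gave 88 of the 30236 genes in the expression table, 36 of the small and 52 of the large subunit. The symbol rule itself uses no measured value, but the group was chosen with earlier results of these data known. Of the 88 rows, 77 are canonical ribosomal protein genes, 6 are coding paralogues (Rpl22l1, Rpl36al, Rpl39l, Rpl3l, Rpl7l1 and Rps27l) and 5 are annotated as pseudogenes in GENCODE although their symbols do not say so (Rps4l, Rps12l1, Rpl6l, Rps3a2 and Rps3a3).

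RNA was sequenced from liver tumors of C57BL/6 mice in 6 libraries, 3 from wild-type (WT) mice and 3 from mice lacking Top1mt, the gene for the mitochondrial type IB topoisomerase (Top1mt-/-, KO). According to the methods, the animals were male littermates from heterozygous breeding, tumors of the same size were taken, and the gene was deleted in the whole animal, so that host cells in the tumor lack it as well. Both groups received the carcinogen diethylnitrosamine at day 14 after birth and carbon tetrachloride, which injures hepatocytes, from week 8 on for 14 weeks, and tumors were collected at 22 weeks of age. Nothing states that each library came from its own mouse, so the p-values measure only the spread between these libraries.

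Ribosomal protein messages are among the most abundant in a cell, and because the subunits are assembled in fixed proportions their levels usually move together. Most begin with a stretch of pyrimidines, the terminal oligopyrimidine or TOP motif, through which growth signals acting on mTOR and the RNA-binding protein Larp1 control their translation. Many of these genes also have processed pseudogenes, copies of the mature message reinserted elsewhere in the genome, with which reads can be shared.

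All values are on the deposited log2 scale, which runs from -2.24 to 22.0 over the whole table and whose depth is unknown. The targeted gene was examined first. Top1mt had values of 7.71, 5.99 and 8.01 in WT 1 to 3 and of 5.58, 6.41 and 6.32 in KO 1 to 3. The library labelled WT 2 lay between KO libraries and the groups overlapped. The log2 fold change was -1.13 ± 0.52 (SE), with an adjusted p of 0.999 in limma, so that every direction given here rests on the labels as deposited. KO 1 also stood apart, as Gm42418, a row overlapping ribosomal RNA sequence, reached 22.0 there against 11.7 in each of the other KO libraries, and Lars2 reached 20.1. In WT 3 both were raised to a lesser degree, to 15.8 and 12.7. Hepatocyte markers, Alb among them, gave a summed level of 20.6 to 21.5 in the 6 libraries, as the tissue label says.

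To show the sequence feature that these messages are known for, start sites of members named here are printed from the RefSeq promoter table (build GRCm38.p6), 40 bases before and 10 bases from the start on, with an unbroken run of C and T that holds the start base in capitals. Rps6 (chr4:86857358-86857407, minus strand), Rps27 (chr3:90213639-90213688, minus strand) and Rps21 (chr2:180257339-180257388, plus strand) have such a run. Rps21 has another listed start (chr2:180257409-180257458, plus strand) with a run of 1 base, which is not printed. Rpl12 (chr2:32961672-32961721, plus strand) and the paralogue Rpl22l1 (chr3:28805468-28805517, plus strand) have a C/T stretch just after the listed start. The paralogue Rpl7l1 (chr17:46782647-46782696, minus strand), with a run of 1 base, is shown for contrast.
Rps6: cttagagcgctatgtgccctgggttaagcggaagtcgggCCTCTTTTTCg
Rps27: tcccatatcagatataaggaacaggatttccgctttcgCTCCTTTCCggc
Rps21: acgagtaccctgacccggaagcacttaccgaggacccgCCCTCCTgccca
Rpl12: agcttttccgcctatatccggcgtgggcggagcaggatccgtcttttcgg
Rpl7l1: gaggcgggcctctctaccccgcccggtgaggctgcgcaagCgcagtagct
Rpl22l1: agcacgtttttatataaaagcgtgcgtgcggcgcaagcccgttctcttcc

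Of the 88 members, 63 had a promoter in that table, with 75 listed starts. A C/T run of at least 5 bases over the start was present at 20 of these 75 starts (26.7%), against 10.1% of all 32851 promoters. The letters CTTT began within 5 bases of the start at 14 of 75 (18.7%), against 5.17% of all promoters. CCGGAAG, searched on both strands of the 250 bases before the start, was present before 20 of the 75 starts (26.7%), against 6.91% of all promoters. These are descriptions of the listed windows. RefSeq starts can lie a few bases from the true one, and a base that is not C or T at the listed start sets the run to 0, as for Rpl12.

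All 88 members passed the filter on low values (a mean above the lowest 25% of the table), and 80 had a mean log2 value of 8 or more, from 8.79 to 13.3 with a median of 11.4. Expressed per kilobase of transcript on the log2 scale, Rplp1, an acidic stalk protein of the large subunit, stood at 13.7, Rps12 at 13.1 and Rps27 at 12.9. The steps between these neighbours were not larger than the spread of Rps12, Rps27 or Rplp1 over the 6 libraries. Much of that spread was shared between the genes, and Rplp1 lay above Rps12 in every library on the deposited scale. On the deposited scale, Rpl4 had a mean of 13.3, Rplp0, the scaffold of the stalk, of 13.1, Rpl13a of 12.9, Rpsa, also known as the laminin receptor, of 12.8 and Rplp1 of 12.7. At the other end, the muscle and heart paralogue Rpl3l had a mean of 0.79, and Rpl39l, known from the testis, of -0.72, close to the bottom of the scale. Among canonical genes Rpl24 alone was low, with 3.89, 4.43 and 3.85 in WT and 3.80, 4.46 and 2.88 in KO. Whether its reads were lost to copies elsewhere was not tested.

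The well expressed members varied as 1 block, and the library that set the block apart was KO 1. The median deviation of the 80 genes from their own means was -0.26, 0.19 and -0.36 log2 units in WT 1, 2 and 3 and 0.93, -0.32 and -0.18 in KO 1, 2 and 3. Over all genes tested the same median lay between -0.0204 and 0.00762 in every library. KO 1 was thus high, WT 2 intermediate, and the other 4 libraries low, and the groups overlapped. KO 1 held the highest value for 79 of the 80 genes and WT 2 the second highest for 78 of them, an order that held for 6.64% of all genes tested and 12.6% of genes with a mean of 8 or more. Among the 115 coding genes outside the group at that level and under 750 bases, 57.4% had this order. Of 21 translation factors with TOP messages, 57.1% had it as well. All 75 well expressed canonical genes other than Rpl3 showed it.

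**Figure D1:**
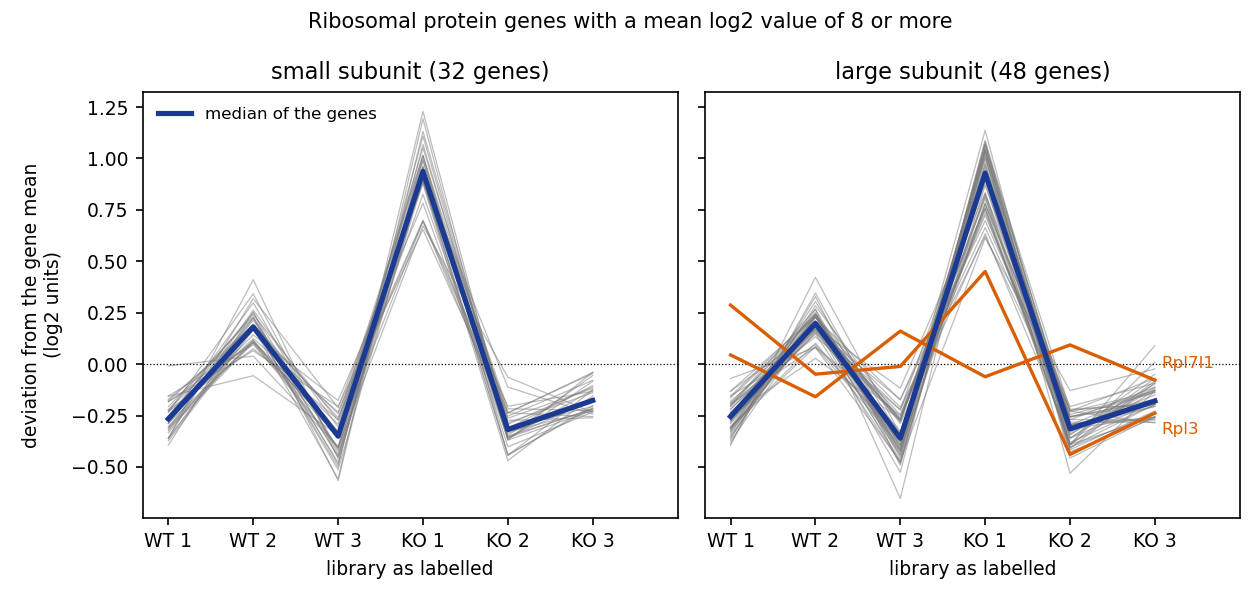
Deviation of each of the 80 members with a mean log2 value of 8 or more from its own mean (vertical axis, log2 units) in the 6 libraries as labelled (horizontal axis), small subunit on the left and large subunit on the right; thin lines are genes, the thick line is their median. Nearly all lines peak in KO 1 and are next highest in WT 2, while Rpl3 and Rpl7l1, in orange, do not follow this order.

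Both subunits gave the same picture. For the 32 small subunit genes the median deviation was 0.94 in KO 1 and 0.18 in WT 2, and for the 48 large subunit genes it was 0.93 and 0.20. On the linear scale, the members made up 1.34%, 1.68% and 1.36% of the summed values in WT 1 to 3 and 1.99%, 1.31% and 1.41% in KO 1 to 3. Without Gm42418, Lars2 and the further high row Gm15564 the share in KO 1 was 2.58%. The ratio of summed small to summed large subunit values stayed within 0.70 to 0.74. In bulk tissue, a change in the share of cells that make a message and a change in the amount per cell cannot be told apart.

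Across genes the similarity was close. Pearson's r of each gene with the median profile of the others, over 6 libraries, had a median of 0.991 and exceeded 0.95 for 76 of the 80 genes. KO 1 exceeded the mean of KO 2 and KO 3 by a median of 1.19 log2 units, with a range of -0.0692 to 1.51. The 6 points are the same libraries for every gene, 1 of which lies far from the rest, and the correlation is given as a description.

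For the effect of Top1mt loss, 82 of the 88 members had a positive and 6 a negative log2 fold change (KO minus WT), with a median of 0.28 against -0.0154 over all 22677 genes tested. None of these differences was called in limma, which weighs each against the spread between replicates. In limma 0 of 88 members had an adjusted p under 0.05 (background 0%), the smallest being 0.999, and 0 of 88 had an unadjusted p under 0.05, against 1.79% of all genes on the higher and 2.56% on the lower side. Members whose groups did not overlap also numbered 0, against 8.28% of all genes. The median was 0.28 for the small and 0.27 for the large subunit. The positive difference rested on KO 1, as without that library 12 members were positive and 76 negative, with a median of -0.0965. Without WT 2 the median was 0.44, and without both WT 2 and KO 1 it was 0.0502, with 67 members positive and 21 negative.

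**Figure D2:**
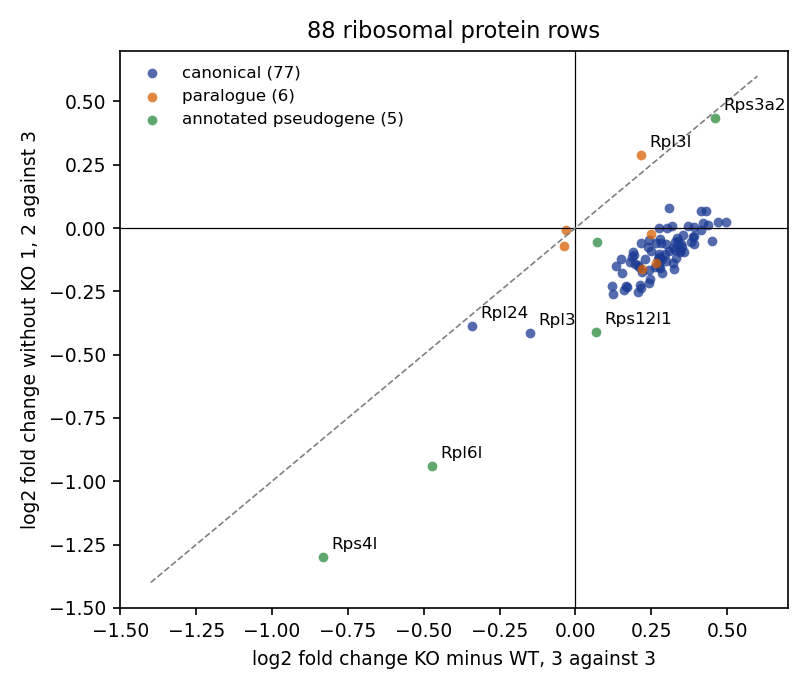
Log2 fold change (KO minus WT) of the 88 members with all 6 libraries (horizontal axis) and without KO 1 (vertical axis); each point is a gene, colored by kind, and the dashed line marks equality. The cluster of canonical genes lies to the right of 0 with all libraries and around or below 0 without KO 1.

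Of the 8 largest positive differences, 6 were in the small subunit, which holds 36 of the 88 members. The pseudogene Rps3a2 is among these 6, and the medians of the small and large subunit, 0.28 and 0.27, were close. Rps12 had values of 11.91, 12.45 and 11.72 in WT and of 13.47, 11.91 and 12.19 in KO. KO 1 was highest and WT 2 next, with KO 2 below WT 1, and the log2 fold change was 0.50 ± 0.40 (SE; limma adjusted p = 0.999). Rps21 behaved alike, with 10.63, 11.27 and 10.45 in WT and 12.15, 10.73 and 10.88 in KO (0.47 ± 0.38, adjusted p = 0.999). For Rps29, a zinc-binding protein of the small subunit, the values were 10.96, 11.51 and 10.82 in WT and 12.55, 10.99 and 11.09 in KO (0.45 ± 0.41, adjusted p = 0.999). In each of the 3 genes the KO mean was raised by 1 library.

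The 8 largest positive differences were completed by 5 further members. Rpl32 (0.44 ± 0.36), Rpl12 of the stalk base (0.43 ± 0.33), Rps26 (0.42 ± 0.34) and Rps27a, which is made as a fusion with ubiquitin (0.42 ± 0.30), all had KO 1 highest and WT 2 second, with an adjusted p of 0.999 each. Without KO 1 their log2 fold changes were 0.0108, 0.0666, 0.0189 and 0.0667. Rps3a2, an annotated pseudogene, had 2.68, 3.49 and 4.97 in WT and 4.23, 3.73 and 4.57 in KO, a low and scattered level (0.46 ± 0.63, adjusted p = 0.999).

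Members with roles beyond the ribosome showed the same order of libraries. Rps6, the substrate of S6 kinase, had 10.35, 11.02 and 10.49 in WT and 11.58, 10.23 and 10.55 in KO (0.17 ± 0.34). Rpl5 and Rpl11, which with 5S rRNA bind Mdm2 and so stabilise p53 when ribosome assembly fails, had log2 fold changes of 0.19 ± 0.25 and 0.24 ± 0.33. Rps19, mutated in Diamond-Blackfan anemia, had 11.17, 11.27 and 10.98 in WT and 12.24, 11.21 and 11.08 in KO (0.37 ± 0.29). Rplp0 and Rpsa differed by 0.30 ± 0.34 and 0.22 ± 0.36. None of the 6 passed the test, with an adjusted p of 0.999 each in limma.

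The 6 negative differences were those of Rps4l, Rpl6l, Rpl24, Rpl3, Rpl39l and Rpl7l1. Rps4l, an annotated pseudogene, had values of 6.97, 5.81 and 7.37 in WT and 6.82, 5.21 and 5.63 in KO, with KO 1 close to WT 1 (-0.83 ± 0.52, unadjusted p = 0.151, adjusted p = 0.999 in limma). It was -1.30 without KO 1 (unadjusted p = 0.0331, adjusted p = 0.78), -1.28 without WT 2 (unadjusted p = 0.0355, adjusted p = 0.961) and -1.75 without both (unadjusted p = 0.00199, adjusted p = 0.606). Rpl6l, also a pseudogene by annotation, had 4.82, 4.93 and 5.14 in WT and 5.43, 3.59 and 4.46 in KO (-0.47 ± 0.50). The differences of Rpl24, Rpl39l and Rpl7l1 were -0.34 ± 0.52, -0.0359 ± 0.17 and -0.0307 ± 0.14.

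Rpl3, which lies near the peptidyl transferase center, was the exception among well expressed canonical genes. Its values were 11.98, 11.65 and 11.68 in WT and 12.15, 11.26 and 11.46 in KO (-0.15 ± 0.24, adjusted p = 0.999 in limma). KO 1 was highest as for the other members, but WT 2 was not raised and WT 1 was second. Without KO 1 the difference was -0.41 (unadjusted p = 0.0407, adjusted p = 0.821), and without KO 1 and WT 2 it was -0.48 (unadjusted p = 0.0371, adjusted p = 0.797). Relative to the median of the other 79 well expressed members, Rpl3 lay 0.85, 0.14 and 0.69 log2 units higher in WT 1 to 3 and -0.19, 0.16 and 0.25 in KO 1 to 3. The library labelled WT 2 was among the KO libraries in this measure, and the groups overlapped (exact two-sided permutation p = 0.3, with 0.1 the smallest that 3 against 3 allows).

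A processed pseudogene row of Rpl3, Rpl3-ps1 on chromosome X (13202571 to 13203780, plus strand, GRCm38), was examined after its values had been seen. It had 5.51, 9.52 and 6.25 in WT and 9.80, 8.91 and 9.15 in KO. The log2 fold change was 2.20 ± 0.91 (SE), with an unadjusted p of 0.0423 and an adjusted p of 0.999 in limma, and the groups overlapped. WT 1 and WT 3 were low and the other 4 libraries high, and Rpl3-ps1 was the 1 row of 195 with the "-ps" suffix to reach a mean of 8 (median of these rows 1.46). The pseudogene's share of the linear sum of Rpl3 and Rpl3-ps1 was 1.11%, 18.6% and 2.26% in WT 1 to 3 and 16.5%, 16.4% and 16.8% in KO 1 to 3 (exact permutation p = 0.4 over the labelled groups). The 3 KO libraries thus had nearly equal shares, and WT 2 was closer to them than to its own group. The library that departs from its group in Top1mt and the one that departs in this share are the same.

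When Rpl3 and Rpl3-ps1 were added on the linear scale, the 3 WT libraries gave sums of 12.0, 11.9 and 11.7, the 3 KO libraries gave 12.4, 11.5 and 11.7, and the difference between groups was -0.00516 log2 units. Rpl3 (80077791 to 80091868, minus strand) and Top1mt (75657035 to 75678800, minus strand) lie on the same chromosome, 15, with 4.4 megabases between them in the GENCODE annotation of GRCm38. Whether reads of the Rpl3 message were assigned to the pseudogene, and whether sequence near Top1mt differed between the animals, was not tested. At least 1 row with the "-ps" suffix was present for 54 of the 88 members, so that values of these members can depend on how reads shared with copies were assigned.

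**Figure D3:**
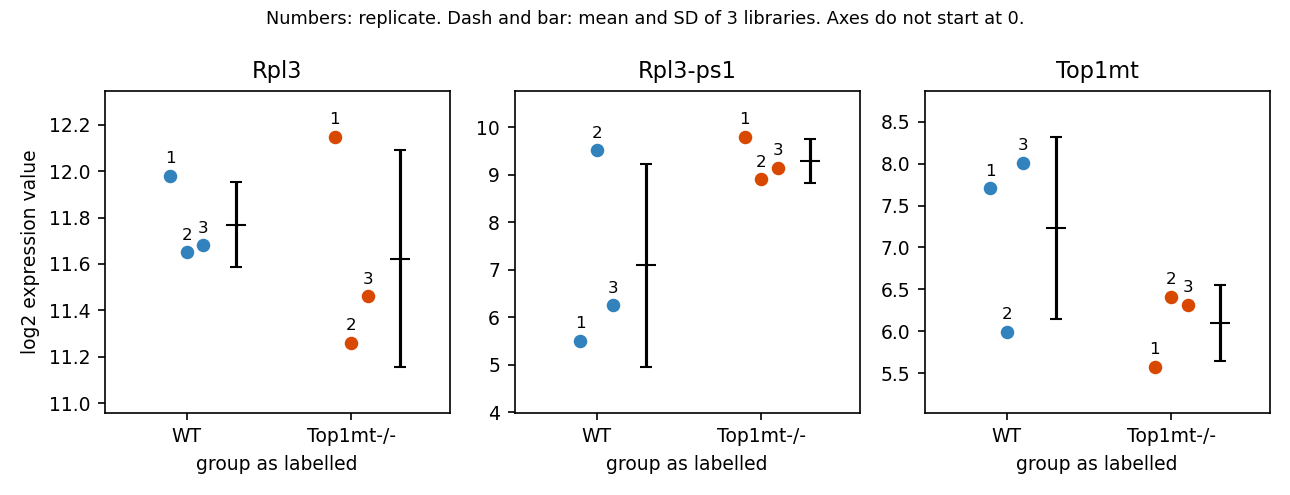
Log2 expression values of Rpl3, Rpl3-ps1 and Top1mt in the 3 WT and 3 Top1mt-/- libraries (points, numbered by replicate), with the mean and SD of each group; vertical axes differ and do not start at 0. The library labelled WT 2 lies with the KO libraries for Rpl3-ps1 (9.52) and for Top1mt (5.99).

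The 6 coding paralogues and Rps4l, an annotated pseudogene, were compared with their parent genes within each library, which removes what the pair shares. Rpl22l1 minus Rpl22 was -2.04 ± 0.059 log2 units (SD, n = 3) in WT and -1.96 ± 0.18 in KO. Rps27l, known as a p53 target, minus Rps27 gave -0.83 ± 0.20 (WT) and -0.97 ± 0.35 (KO). For Rpl36al minus Rpl36a the WT mean was 0.0358 ± 0.13 and the KO mean -0.0916 ± 0.0848. Rpl7l1 minus Rpl7 was -2.56 ± 0.39 and -2.78 ± 0.60, and Rps4l minus Rps4x was -5.62 ± 1.03 and -6.73 ± 0.18. Rpl39l and Rpl3l were near the bottom of the scale. Rpl39l minus Rpl39 averaged -11.2 in WT and -11.6 in KO, and Rpl3l minus Rpl3 averaged -11.1 and -10.7, with Rpl3l at 1.34 in KO 3 and at 0.55 to 0.79 in the other libraries. Exact two-sided permutation p-values of the 7 pairs ranged from 0.2 to 0.8 (0.7 to 0.8 adjusted over the 7).

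**Figure D4:**
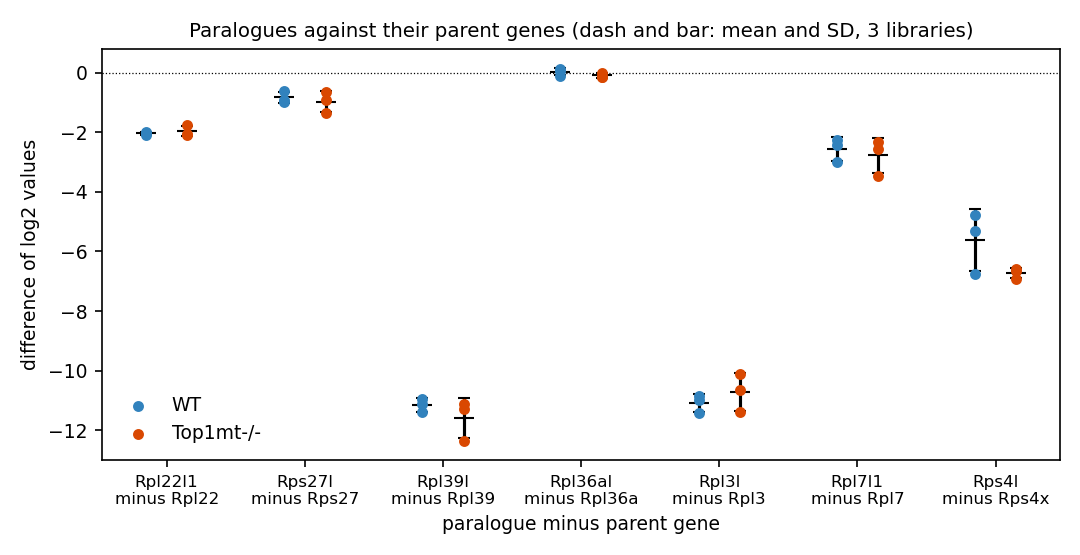
Difference of log2 values, paralogue minus parent gene, for 6 coding paralogues and the annotated pseudogene Rps4l (horizontal axis) in WT (blue) and Top1mt-/- (orange) libraries; points are libraries, dash and bar the mean and SD of 3. The groups overlap for every pair, and Rpl39l and Rpl3l sit lowest of the 7 against their parents.

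Rpl7l1, a paralogue with a role in ribosome assembly rather than in the mature ribosome, was the 1 well expressed member whose profile ran opposite to that of the others. Its values were 9.82, 9.62 and 9.94 in WT and 9.72, 9.87 and 9.70 in KO, and its r with the median profile of the others was -0.582 over 6 libraries. Rpl22l1 and Rpl36al followed the order, with KO minus WT differences of 0.27 and 0.22 that turned negative without KO 1.

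Transcript length moved with the deviation in KO 1. Members are short, with a median transcript of 874 bases against 2876 over coding genes tested. Among coding genes outside the group with a mean of 8 or more, the median deviation in KO 1 was 0.48 for the 115 genes under 750 bases, 0.16 for the 643 of 750 to 1500 bases and 0.00359 for the 5982 of 1500 bases or more. The corresponding values in WT 2 were 0.12, 0.0935 and 0.00825. Members under 750 bases and of 750 to 1500 bases deviated by 0.99 (28 genes) and 0.90 (40 genes) in KO 1. Well expressed members of 1500 bases or more deviated there by 0.62 (Rpl4) to 1.02 (Rps15a), except Rpl7l1 at -0.0614. Lengths here are those of the longest principal coding transcript, as with 5179 bases for Rps15a, 3706 for Rps20 and 2989 for Rpl18. Which transcript was expressed was not tested, so members of this class may have shorter messages. The correlation and the length correction that follow use the same lengths. Within the 80 members, the deviation in KO 1 and log2 length had a Pearson's r of -0.403 and a Spearman's rho of -0.391 across genes, which are not independent. After the length trend of the other genes was taken out of each library, an alternative chosen after seeing the data, the median deviation of the 80 members was 0.66 in KO 1 and 0.12 in WT 2, and the median log2 fold change was 0.22.

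**Figure D5:**
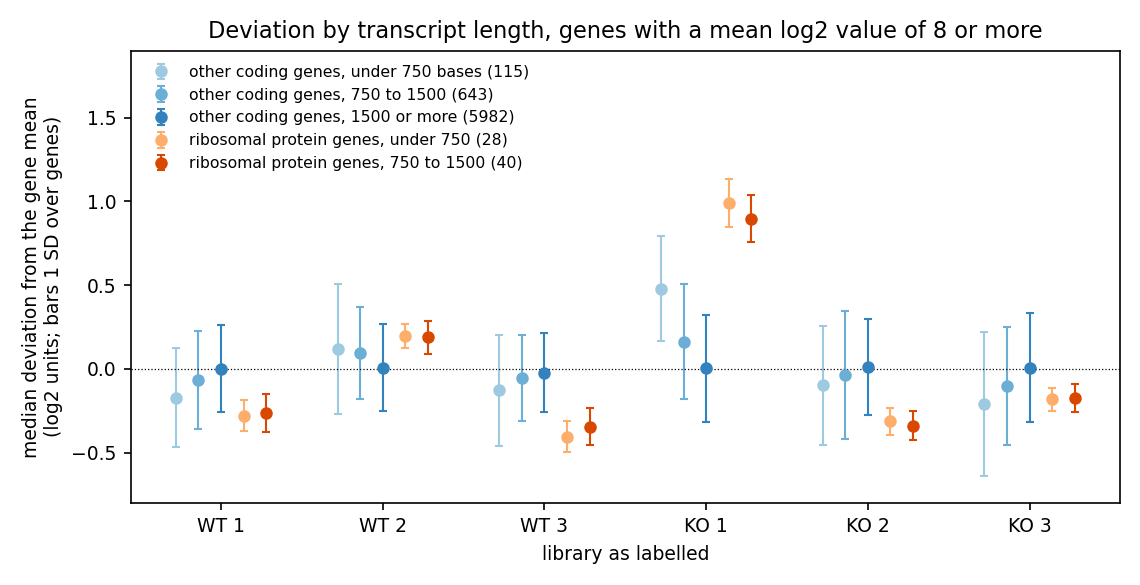
Median deviation from the gene mean (log2 units, bars 1 SD over genes) in each library for other coding genes of 3 length classes (blue) and members of 2 length classes (orange), all with a mean log2 value of 8 or more. In KO 1 short genes outside the group are raised (0.48) and short members more so (0.99), while other coding genes of 1500 bases or more stay near 0. Members of 1500 bases or more are not drawn.

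Some cell type markers also stood apart in KO 1. The summed level of 7 hepatocyte markers, which Alb dominates, was highest in KO 1 (21.5) and next in WT 2 (21.3). Single markers were divided, as KO 1 was highest for 3 of the 7 (Alb, Apoa2 and Serpina1a) and lowest for Cyp2e1 (12.5, against 13.1 to 14.5 in the other libraries). The summed level of 4 stellate cell and fibroblast markers was lowest in KO 1 (11.3, against 12.2 to 13.7 in WT and 12.3 to 13.3 in the other KO libraries), and KO 1 was lowest for Col1a1, Col1a2 and Dcn. The 4 bile duct markers summed to 7.46 to 8.96 in WT and 7.32 to 7.79 in KO, a sum in which Sox9, highest in KO 1 (7.59), has a large part. The keratins Krt19 and Krt7 and Epcam had log2 fold changes of -2.68 ± 0.69, -2.20 ± 0.73 and -1.19 ± 0.56, with unadjusted p of 0.00491, 0.017 and 0.0685 and adjusted p of 0.987, 0.999 and 0.999 in limma. Groups did not overlap for Krt19 and Epcam, 2 of the 4 markers, against 8.28% of all genes tested. For Epcam they almost met, at 5.223 in WT 2 and 5.216 in KO 3. The median deviation of the 4 markers in KO 1 was -1.56. Sums for B cell, T cell, macrophage and endothelial markers were 6.16 to 7.76, 5.58 to 5.83, 11.3 to 12.1 and 12.4 to 12.9 over all libraries. Striated muscle and germ cell markers stayed at or below 2.69. The part of cell composition, of the Gm42418 and Lars2 signal and of length in the result was not tested.

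Genes that work with the ribosomal proteins were counted from lists, with 0 calls by adjusted p and 0 by unadjusted p in limma in each list from Fau to the noncoding host genes. Fau, which encodes a small subunit protein as a fusion with a ubiquitin-like protein and lies outside the symbol rule, had 10.49, 10.94 and 10.41 in WT and 11.50, 10.37 and 10.58 in KO. Its order of libraries was that of the members, and the log2 fold change was 0.20 ± 0.30. Of 21 translation factors with TOP messages, 19 were positive and 2 negative, with a median of 0.0851. The elongation factors Eef1a1 and Eef2 differed by 0.24 ± 0.41 and 0.18 ± 0.26, and Tpt1, a growth-related TOP gene, by 0.31 ± 0.35. Pabpc1, the poly(A) binding protein, differed by -0.00657 ± 0.19. KO 1 was the highest library for 15 of the 21 (71.4%), against 18.8% of all genes tested and 24.9% of those with a mean of 8 or more. Among coding genes outside the group at that level and under 750 bases it was highest for 74.8%.

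Genes for building ribosomes were mostly near or below their means in KO 1. Of 50 ribosome assembly factors 31 were positive and 19 negative, with a median of 0.0303. KO 1 was highest for 4 of 50 (8%, against 18.8% of all genes tested), with a median deviation there of -0.19. Without KO 1, 43 of 50 were positive, with a median of 0.14. Npm1 and Fbl, nucleolar proteins, differed by 0.19 ± 0.15 and 0.0202 ± 0.21, and Ncl by -0.13 ± 0.18. Fbl had its lowest value in KO 1 (6.98, against 7.23 to 7.58 in the other libraries), as did Ncl (10.58, against 11.00 to 11.15). Npm1, by contrast, had its highest value there (11.53, against 11.07 to 11.40). RNA polymerase I and its factors, which make the ribosomal RNA precursor, had a median of 0.0423 over 15 genes, with Polr1a at -0.12 ± 0.15, Rrn3 at -0.15 ± 0.18 and Ubtf at -0.0449 ± 0.21.

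Regulators of ribosomal protein output had a median of 0.00122 over 20 genes. KO 1 was highest for 6 of the 20 (30%, against 18.8% of all genes tested), with a median deviation there of 0.108. Myc, which drives transcription of ribosomal genes, had 7.25, 6.17 and 6.69 in WT and 5.52, 6.78 and 6.72 in KO, with the lowest value in KO 1 (-0.36 ± 0.42). Mycn went the other way, with 5.56, 6.17 and 5.04 in WT and 6.33, 5.28 and 4.78 in KO, KO 1 being highest and WT 2 next (-0.13 ± 0.48). Larp1 had 11.41, 11.64 and 11.56 in WT and 11.87, 11.53 and 12.13 in KO (0.31 ± 0.18, unadjusted p = 0.127), and Mtor differed by 0.16 ± 0.20. Of the 5 noncoding host genes with TOP starts all were positive, with a median of 0.24, and Gas5 differed by 0.24 ± 0.21. The adjusted p was 0.999 in limma for every gene named in these lists.

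Mitochondrial ribosomal proteins, which are encoded in the nucleus but serve the mitochondrial ribosome, are given for comparison without a test of the difference. Over 79 genes their median deviation was 0.23 in KO 1 and 0.0935 in WT 2, and their median log2 fold change was 0.0765, with 56 positive and 23 negative. Of the 79 genes, 2 had an unadjusted p under 0.05 in limma on the higher and 1 on the lower side, against 1.79% and 2.56% of all genes. Among the rows with the "-ps" suffix, 145 passed the filter, with a median log2 fold change of 0.27 and a median deviation of 0.61 in KO 1 and of -0.0861 in WT 2. Of these rows, 6 had an unadjusted p under 0.05 in limma on the higher side and 0 on the lower. Groups did not overlap for 10 of them, against 8.28% of all genes.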

How the data were processed

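RNA from 3 WT and 3 Top1mt-/- liver tumors was sequenced as stranded libraries. The authors deposited 1 table of log2 expression values per gene and library. In the methods the authors name Trimmomatic, BWA with the Mm 8 genome, featureCounts on unique reads, and DESeq2. The processing notes of the authors, as deposited, list bcl2fastq 2.17, Trimmomatic 0.36, STAR 2.5.1, Subread, DESeq2 and GRCm38, so the aligner and build used for this table are uncertain. The log2 transform is not named, counts and depth are unknown, and 3 columns without a name were not used. Further columns of per-sample values numbered 0.

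Groups were taken from the labels. Genes with a mean above the lowest 25% (22677 of 30236) were tested with limma 3.58.1 in R 4.3.3 (mean-variance trend, Benjamini-Hochberg adjustment), on all 6 libraries without further terms, after the script had been tested on simulated data. In that simulation 18 of 200 genes shifted by 1 log2 unit were recovered at an adjusted p under 0.05, and 95 of 200 shifted by 2. A missing call therefore does not show that a difference is absent. A fold change is a difference of mean log2 values, KO minus WT. Low values on this scale may be drawn toward the gene mean, which understates differences. Paralogue pairs were tested by exact permutation over 20 regroupings. Transcript lengths are those of the longest principal coding transcript in GENCODE M21 (GRCm38). Where there was none, the longest coding transcript was taken, and otherwise the longest of any kind. Rps15a and Rps20 are given 5179 and 3706 bases in this way. The deviation is a value minus the gene's mean over 6 libraries. Named were the members with the 8 largest differences in each direction, those without overlap or with an unadjusted p under 0.05, the 5 highest and 5 lowest by mean, the paralogue pairs and members and list genes chosen for their known roles. Members and lists were chosen with earlier results of these data known. Other normalizations and filters, a replicate block, a length correction and libraries left out were tried as alternatives. Amino acid sequences were not analysed here, and 1 list gene is not reported here.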

Additional observations from a re-analysis of the deposited data

How the results depend on the processing

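No member passed an adjusted p under 0.05 in limma under any alternative run. Leaving out libraries, singly or as the pairs WT 3 with KO 1 and WT 2 with KO 1 (the latter added after seeing the data), changed the direction of most results, and the lowest values came in most cases from fits without KO 1. The cause was not tested. A fit that leaves a group with 2 libraries assumes that their spread is like that of the other group. The median log2 fold change ranged from -0.209 to 0.505 over all members, from -0.187 to 0.523 for the small and from -0.215 to 0.492 for the large subunit, and the number of members with an unadjusted p under 0.05 from 0 to 2. List medians ranged from -0.111 to 0.194 for TOP translation factors, from -0.0321 to 0.171 for assembly factors, from -0.0104 to 0.0817 for RNA polymerase I and from -0.0257 to 0.022 for regulators. Paralogue minus parent differences ranged from -0.0573 to 0.137 for Rpl22l1, from -0.304 to 0.0401 for Rps27l, from -0.682 to 0.0388 for Rpl39l and from -0.439 to 0.278 for Rpl7l1.

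Single genes that changed sign when libraries were left out are given with the lowest and highest log2 fold change: Eef1a1 (-0.0445 to 0.369), Fau (-0.236 to 0.426), Fbl (-0.0926 to 0.262), Myc (-0.63 to 0.0484), Ncl (-0.224 to 0.0951), Pabpc1 (-0.293 to 0.106), Polr1a (-0.211 to 0.00527), Rpl11 (-0.215 to 0.459), Rpl12 (-0.0664 to 0.653), Rpl13a (-0.231 to 0.465), Rpl22l1 (-0.212 to 0.468), Rpl24 (-0.716 to 0.0774), Rpl3 (-0.476 to 0.0306), Rpl32 (-0.143 to 0.655), Rpl36al (-0.245 to 0.456), Rpl3l (-0.00389 to 0.366), Rpl4 (-0.191 to 0.316), Rpl5 (-0.161 to 0.358), Rpl7l1 (-0.118 to 0.065), Rplp0 (-0.215 to 0.521), Rplp1 (-0.261 to 0.66), Rps12 (-0.133 to 0.802), Rps12l1 (-0.724 to 0.476), Rps19 (-0.0708 to 0.587), Rps21 (-0.142 to 0.732), Rps26 (-0.115 to 0.656), Rps27a (-0.0332 to 0.637), Rps27l (-0.164 to 0.429), Rps29 (-0.19 to 0.726), Rps3a2 (-0.0578 to 1.09), Rps6 (-0.292 to 0.445), Rpsa (-0.339 to 0.497), Rrn3 (-0.299 to 0.031), Tpt1 (-0.218 to 0.556) and Ubtf (-0.25 to 0.237).

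Among the other alternatives, quantile normalization gave 0 for Eef1a1 and -0.014 for the regulators, centring gave 0.0031 for Pabpc1, and removal of the length trend gave -0.000653 for Fbl, -0.0275 for Rps12l1 and -0.00671 for RNA polymerase I. Without a filter on low values 4 genes of the whole table passed an adjusted p under 0.05 in place of 0, and without KO 1 it was 1. Whether replicate numbers pair the libraries is unknown. The deviations of libraries with the same number correlated at -0.123, -0.0759 and 0.052, and only number 3 had WT and KO libraries that matched each other best. As deviations are taken from the mean of the same 6 libraries, these correlations cannot decide it. A fit with the replicate block left the median of the members at 0.277 with 0 calls. Depth is unknown and limits what can be said of low rows such as Rpl3l and Rpl39l.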
